A study of Mus musculus with 2 samples.

Results

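The genes described here are Lyve1, Fcna, Cbr2, Folr2, Mrc1, Igf1, Cd163, Selenop, Fcrls and Npl, which mark macrophages that reside in tissues. They were taken by symbol from the deposited gene table, where all 10 were found among 32285 genes. Their counts were followed in tumour macrophages and monocytes sorted into states by other marker genes, and in the RNA that floats free in the cell suspension.

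Resident macrophages live in a tissue for long periods, clear debris and used plasma proteins, and are often found along vessels and in connective tissue. Several of their typical genes encode uptake receptors on the cell surface. Others encode secreted proteins or enzymes that handle what has been taken up. In tumours such cells lie beside macrophages that derive from newly arrived blood monocytes, in which these genes tend to be low.

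Cells carrying CD45, the surface protein shared by leukocytes, had been sorted from tumours of mice inoculated with B16-hAXL cells and sequenced as single cells at day 15. B16 is a mouse melanoma line, and hAXL in its name is taken here to mean human AXL, so the tumours of both groups carry it. The control mice received PBS and the treated mice 200 µg of the antibody 6C5 against AXL, both by intraperitoneal injection, and the genotype of both groups is given as WT. AXL belongs to the TAM receptor tyrosine kinases and binds the bridging protein Gas6. The sources used here do not give strain, age, sex, the dosing schedule or how many mice stand behind a library.

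There was 1 library per group, so each difference below compares 2 libraries, has no replicate check and carries no p-value. The libraries held 78923567 UMIs (PBS) and 85921419 UMIs (6C5), where a UMI stands for a captured mRNA molecule. Monocyte-like and macrophage-like cells, called the monocyte-macrophage class below, numbered 1804 in PBS and 1884 in 6C5, with medians of 12774.5 and 10358.5 UMIs per cell. Levels are given in CPM, the UMIs of a gene scaled to a total of 1000000 for the population. All intervals are 95% intervals and cover counting error only. A ratio is 6C5 over PBS, and a gene is called lower or higher where the interval of its ratio lies below or above 1. Cell barcodes were shared between the libraries by 272 of the barcodes kept, 10 of them in resident-like cells. Without them the median log2 ratio of the scavenger genes in the class was -1.46, beside -1.47 with them.

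The genes lie apart in the mouse genome (GRCm38, GENCODE release M21). Lyve1 lies at chr7:110850607-110863239 on the minus strand and Folr2 at chr7:101839988-101857194, also on the minus strand. Fcna lies at chr2:25624666-25628030 (minus) and Mrc1 at chr2:14229392-14332057 (plus). Cbr2 lies at chr11:120729489-120732114 (minus), Igf1 at chr10:87858265-87937042 (plus) and Cd163 at chr6:124304656-124330527 (plus). Selenop lies at chr15:3268547-3280508 (plus), Fcrls at chr3:87250758-87263738 (minus) and Npl at chr1:153503015-153550045 (minus). Fcna, Folr2, Igf1 and Selenop overlap genes on the opposite strand (Fcnaos, Gm10602 and Gm45319, Igf1os, and Ccdc152), and the sources used here do not give the strand used in counting. Mir511 lies inside Mrc1 on the same strand, and its reads cannot be told apart from those of the host transcript.

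Promoter sequence was found for 9 of the 10 genes in RefSeq (GRCm38.p6). The 4 stretches below are shown because Fcna and Mrc1 were lower in the 6C5 library in the comparisons that follow, while Folr2 and Fcrls were not lower in the class as a whole. They are also the only stretches that hold a motif to mark. Those of Cbr2, Cd163, Selenop and another Folr2 start hold none and are not shown. Cbr2, Cd163 and Selenop were lower as well. Each is taken from the longest run of bases outside exons in the 250 bases upstream of a RefSeq start, 5′ to 3′ on the gene's strand. At most the last 100 bases of that run are shown. They end 57 (Fcna), 23 (Mrc1), 1 (Folr2) and 76 (Fcrls) bases before the start. Capitals mark TGCTGA, the core of the sites bound by MAF factors, and GAGGAA or its reverse complement TTCCTC, the core bound by PU.1, both factors of macrophages.
Fcna, chr2:25628031-25628130, minus strand: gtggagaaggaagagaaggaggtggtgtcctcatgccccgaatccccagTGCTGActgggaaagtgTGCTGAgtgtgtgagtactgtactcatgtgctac
Mrc1, chr2:14229292-14229391, plus strand: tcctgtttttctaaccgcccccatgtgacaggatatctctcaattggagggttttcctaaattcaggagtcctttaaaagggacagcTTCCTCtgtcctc
Folr2, chr7:101845332-101845431, minus strand: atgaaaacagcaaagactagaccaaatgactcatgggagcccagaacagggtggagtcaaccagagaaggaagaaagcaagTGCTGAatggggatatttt
Fcrls, chr3:87263600-87263677, minus strand: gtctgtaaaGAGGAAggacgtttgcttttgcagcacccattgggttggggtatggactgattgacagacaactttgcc
The Fcna and Mrc1 stretches lie upstream of the annotated genes, and those of Folr2 and Fcrls inside introns of longer annotated transcripts. TGCTGA thus stood before a gene that was lower (Fcna) and before a gene that was not (Folr2), and the PU.1 core likewise before Mrc1 and Fcrls. Outside the stretches shown, the 250 bases before the start of Fcna also held 3 GAGGAA sites and those of Fcrls 1 TGCTGA. Both strands of the 250 bases before each start were searched, with TCAGCA as the reverse of TGCTGA, and the motifs can overlap by the letters GA. GAGGAA was found in 7 of the 12 RefSeq windows of these genes, beside 23.3% of 32851 mouse promoter windows, and TGCTGA in 4 of 12, beside 16.1%. The 12 windows come from 9 genes, and overlapping windows of Selenop hold the same GAGGAA site, which is thus counted more than once. Folr2 likewise counts with more than 1 window for TGCTGA. A match describes letters only and shows no binding.

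The class was split into 8 states by markers that include none of the 10 genes, in clusters built without them. The resident-like state held 233 PBS and 100 6C5 cells. Among its 200 leading genes were 8 of the 14 markers fixed for that state, Gas6 and Ltc4s among the first 10, and 11 of 11 general macrophage markers such as C1qa and Adgre1. The scavenger genes followed the label: 6 of them stood among the first 10 leading genes of this state and all 10 among the first 200. Of the markers of other cells in the resident-like state, fibroblast markers summed to 0 CPM in PBS and 1.28 CPM (2 UMIs) in 6C5. Blood endothelial markers summed to 11.8 and 11.6 CPM, with Emcn at 0 in both libraries. Of the lymphatic endothelial markers, of interest because lymphatic vessels also carry Lyve1, Prox1, Ccl21a, Mmrn1 and Reln were at 0 in both libraries, and Pdpn held 23 UMIs in PBS and 125 in 6C5.

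Across the whole monocyte-macrophage class, 7 of the 10 scavenger genes were at least 2-fold lower in the 6C5 library, where 7.55% of 12272 genes were. Lyve1 and Fcna stood at the low end, with 71.6-fold and 13-fold less. Their log2 ratios, -4.94 and -3.40, were below 0 under all 17 alternative settings but depended on which cells formed the class: with 1000 variable genes they were -2.18 and -1.66, and with a free-RNA bound of 0.95, which left 54 and 68 cells, -0.86 and -2.83. Folr2, in contrast, was higher over the 8 states, but over the 7 states without the Negr1-type state it was at 246 CPM in PBS and 241 CPM in 6C5, so that the higher class value rests on counting that state. Igf1 and Fcrls were within counting error of equal levels. The median log2 ratio over the 10 genes was -1.47, beside -0.30 over all genes tested. By the counting interval 7 genes were lower and 1 was higher, but so many UMIs were summed that the interval lay below 1 for 58.4% of all genes and above 1 for 15.4%, so that this second count is near the background. The largest state of the class was the Negr1-type state in PBS (31.2% of cells), and the Arg1-high (28.9%) and Cxcl9 interferon-type (25.8%) states in 6C5. Beside these values, the summed monocyte markers of the class were at 1324 CPM in PBS and 2900 CPM in 6C5, its B-cell markers at 115 and 13.6 CPM, its T-cell markers at 7.29 and 8.70 CPM and its melanoma markers at 41.7 and 50.4 CPM, and their part in the result was not tested.

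Among the receptors, Lyve1, a receptor for the matrix sugar hyaluronan, was counted in 1340 UMIs in PBS and 16 in 6C5. Its level in the class was 51.9 CPM (49.2 to 54.8) in PBS and 0.725 CPM (0.414 to 1.18) in 6C5, with a ratio of 0.0140 (0.00796 to 0.0228). The 6C5 library thus held almost none of it. Mrc1, the mannose receptor that takes up glycoproteins, went from 14492 UMIs and 562 CPM in PBS to 4324 UMIs and 196 CPM in 6C5, with a ratio of 0.349 (0.337 to 0.361). Cd163, the receptor that clears complexes of haemoglobin and haptoglobin, went from 370 to 75 UMIs and from 14.3 to 3.4 CPM, with a ratio of 0.237 (0.182 to 0.304). Both uptake receptors were thus lower in the 6C5 library well beyond their counting intervals. Folr2, the folate receptor beta, held 4869 UMIs and 189 CPM in PBS and 5307 UMIs and 241 CPM in 6C5, with a ratio of 1.27 (1.23 to 1.33). Fcrls, an Fc receptor-like protein found on microglia and other resident macrophages, held 1950 and 1571 UMIs, or 75.6 and 71.2 CPM, with a ratio of 0.942 (0.881 to 1.01).

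Among the secreted proteins, Fcna, the ficolin that starts the lectin pathway of complement, was lower in the class: 1349 UMIs and 52.3 CPM in PBS became 89 UMIs and 4.03 CPM in 6C5, with a ratio of 0.0771 (0.0615 to 0.0956). Selenop, the plasma carrier of selenium, held 23329 UMIs and 904 CPM in PBS and 9426 UMIs and 427 CPM in 6C5, with a ratio of 0.472 (0.461 to 0.484). Igf1, the insulin-like growth factor, was at 91.1 CPM in PBS and 88.5 CPM in 6C5, with a ratio of 0.971 (0.914 to 1.03) that spans 1. Of the enzymes, Cbr2, a carbonyl reductase, went from 416 to 155 CPM (10740 and 3420 UMIs), with a ratio of 0.372 (0.358 to 0.387). Npl, the lyase that breaks down sialic acid, went from 57.1 to 12.8 CPM (1472 and 282 UMIs), with a ratio of 0.224 (0.196 to 0.255). Both enzymes and both of the other secreted proteins were thus lower, and Igf1 alone of these 5 genes was level.

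The scaling moved these values together. With TMM factors in place of CPM the median of all genes rose from -0.30 to -0.03 on the log2 scale, and 6 of the 10 scavenger genes were at least 2-fold lower, where 4.04% of all genes were. Selenop was then at -0.77, and Igf1 (0.27) and Fcrls (0.22), which were at -0.04 and -0.09 with CPM, turned positive. Lyve1 (-4.72), Fcna (-3.12), Npl (-1.77) and Cd163 (-1.53) kept their order and sign. Of all 2-fold calls, 75.7% were lower in 6C5 with CPM and 49.6% with TMM factors.

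**Figure D1:**
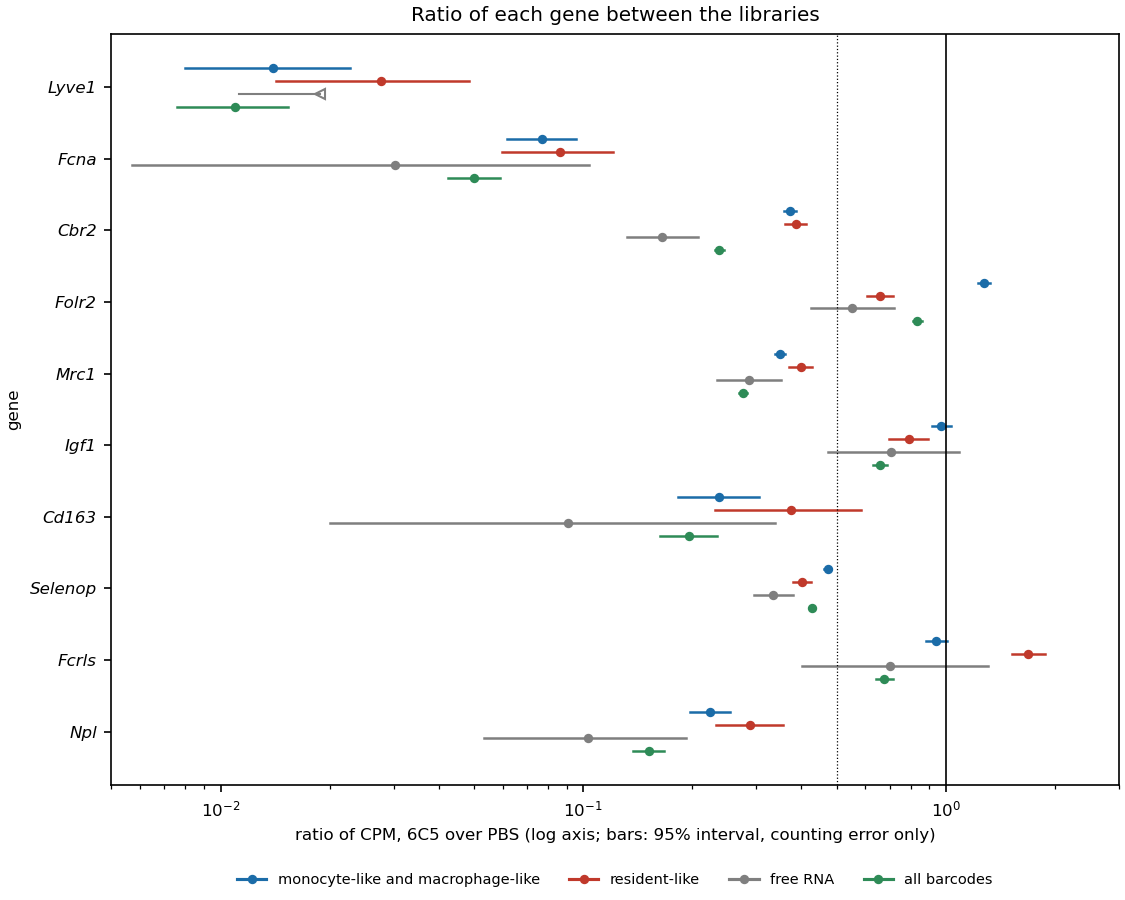
Ratio of each gene, 6C5 over PBS, on a log axis, in the monocyte-macrophage class, resident-like cells, free RNA and all barcodes summed. Points are ratios of CPM and bars 95% intervals of counting error. The solid line marks 1 and the dotted line 0.5. The open triangle is the ratio of Lyve1 in free RNA with 3 UMIs put in place of its 0 in 6C5. Lyve1 and Fcna lie far to the left in each population, while Folr2 lies above 1 in the class (1.27) and below 1 in resident-like cells (0.659), and Fcrls below 1 in the class (0.942) and above 1 in resident-like cells (1.69).

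In the PBS library each of the 10 genes had its highest level of the 8 states in resident-like cells, and for 9 of them the counting interval stood clear of the next state. The exception was Cd163, with 39.4 CPM in resident-like cells and 28.5 CPM in lipid-type cells, whose intervals overlapped. The state next in order was cycling macrophages for Lyve1 (31.1 CPM), Fcna (30.3 CPM), Folr2 (195 CPM), Fcrls (103 CPM) and Npl (66.1 CPM). It was lipid-type macrophages, marked by Ctsk and Atp6v0d2, for Cbr2 (399 CPM), Mrc1 (632 CPM), Igf1 (93.7 CPM) and Selenop (938 CPM). Lyve1 had the steepest drop among receptors: 278 CPM in resident-like cells of PBS, 26.4 times (22.9 to 30.6) the level of the other states summed. The same fold was 18.3 (16.1 to 20.8) for Fcna, and 3.09 (2.99 to 3.2) for Mrc1, which was counted in every state. Mrc1, Selenop and Cbr2 were at 28.4 CPM or more in each of the 8 states of PBS.

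In the 6C5 library 7 states had at least 30 cells, and resident-like cells were again highest for 9 of the genes, but clear of the next state for only 3 (Cbr2, Mrc1 and Selenop). Npl was highest in cycling macrophages, with 98.9 CPM beside 64.2 CPM in resident-like cells, and these intervals did not overlap. For Folr2, lipid-type cells came level with resident-like cells, with 445 CPM beside 465 CPM. For Fcrls, cycling cells had 348 CPM beside 383 CPM in resident-like cells. Immunoglobulin genes led the cycling state, and 3 of 6 B-cell markers stood among its leading genes. So did 3 of 7 markers of the Negr1-type state. The part of these in the cycling values above and below was not tested. The fold of resident-like cells over the other states for Folr2 was 7.47 (7.06 to 7.91) in PBS and 2.08 (1.92 to 2.25) in 6C5. For Fcrls it was 4.74 (4.33 to 5.18) in PBS and 8.07 (7.27 to 8.94) in 6C5. The Negr1-type state, with 563 cells in PBS and 4 in 6C5, is almost all of 1 library and may be that library rather than a type. There Selenop stood at 922 CPM, Mrc1 at 459 CPM and Cbr2 at 141 CPM, while Lyve1 was at 2.75 CPM and Fcna at 11.8 CPM.

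**Figure D2:**
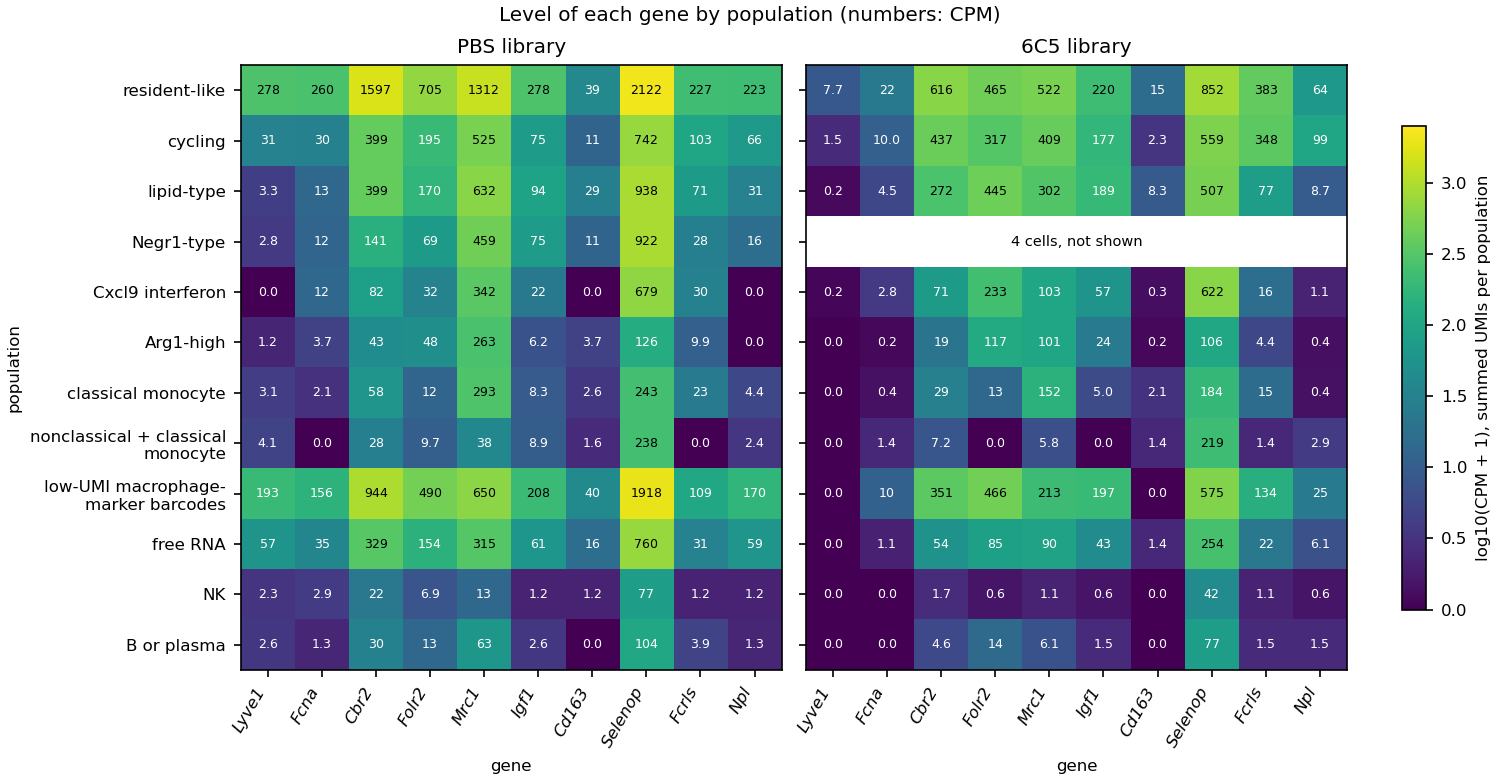
Heat map of the level of each of the 10 genes in CPM (numbers in the cells, colour on a log10 scale of CPM plus 1) in the macrophage and monocyte states and in other populations of each library. In PBS the resident-like state holds the highest of the 8 state values for each gene, such as 278 CPM for Lyve1 and 2122 CPM for Selenop; the Negr1-type state of 6C5 (4 cells) is left out.

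The share of these levels that free RNA could supply was estimated per gene. The share of free RNA in a population was estimated from melanoma and haemoglobin genes. In the class it was 2.61% in PBS and 1.84% in 6C5. At the levels in free RNA, it could give 2.87% of the class level of Lyve1 in PBS and 1.46% of that of Mrc1. In resident-like cells the figures were 0.557% for Lyve1, 0.559% for Cbr2 and 0.972% for Selenop in PBS. Natural killer cells, which should lack these genes, held 4 Lyve1 UMIs (2.3 CPM) in PBS and 0 in 6C5. Their Selenop level was 77.2 CPM in PBS and 42.3 CPM in 6C5, and their Cbr2 level 21.9 and 1.67 CPM. Their estimated share of free RNA in PBS was 1.75%, and free RNA of PBS held Selenop at 760 CPM and Cbr2 at 329 CPM. That share gives less than these cells held, so the percentages above are not upper limits. T-like cells of PBS had 67 Lyve1 UMIs (11.1 CPM) and 500 Cbr2 UMIs (82.7 CPM) and those of 6C5 had 3 and 315 UMIs.

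Resident-like cells made up a smaller share of the class in the 6C5 library and had less of most of these mRNAs in each cell. Their share was 12.9% (11.4 to 14.6, exact Clopper-Pearson) in PBS and 5.31% (4.34 to 6.42) in 6C5, with a ratio of 0.411 (0.328 to 0.515). Within the state 9 of the 10 genes were lower in 6C5 and 1, Fcrls, was higher, where 17.3% of 9032 genes tested were lower and 10.8% higher. At least 2-fold lower were 7 of the 10, where 4.26% of all genes were. The median log2 ratio was -1.34, beside -0.11 over all genes. The share and the makeup of this state depended on the clustering: with members among the clustering genes the ratio of shares was 0.102, and with Leiden resolution 2 it was 0.0976. Median depth was 16186 UMIs per cell in PBS and 14558.5 in 6C5.

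In resident-like cells Lyve1 went from 1110 UMIs and 278 CPM (262 to 295) in PBS to 12 UMIs and 7.70 CPM (3.98 to 13.5) in 6C5, with a ratio of 0.0277 (0.0142 to 0.0485). Mrc1 went from 1312 to 522 CPM (5233 and 814 UMIs), with a ratio of 0.398 (0.369 to 0.429). Cd163 went from 39.4 to 14.8 CPM on 157 and 23 UMIs, with a ratio of 0.375 (0.231 to 0.583). These 3 uptake receptors were thus lower within the state as they were in the class, although Cd163, on its few UMIs, turned to log2 ratios of 0.40 and 0.062 in 2 of 14 alternative clusterings and settings. Folr2 was lower too within the state, at 705 CPM in PBS and 465 CPM in 6C5, with a ratio of 0.659 (0.606 to 0.715), although the class as a whole had more of it. Fcrls went the other way, from 227 CPM (905 UMIs) to 383 CPM (597 UMIs), with a ratio of 1.69 (1.52 to 1.87).

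The secreted Fcna went from 260 CPM (1038 UMIs) to 22.5 CPM (35 UMIs) in resident-like cells, with a ratio of 0.0863 (0.0598 to 0.121). Selenop went from 2122 to 852 CPM, with a ratio of 0.402 (0.379 to 0.426). Igf1 went from 278 to 220 CPM, with a ratio of 0.791 (0.698 to 0.893), the mildest of the 9 lower genes. With Leiden resolution 2 its log2 ratio turned to 0.23. Both enzymes were lower by more than 2-fold. Cbr2 went from 1597 to 616 CPM, with a ratio of 0.386 (0.360 to 0.413), and Npl from 223 to 64.2 CPM, with a ratio of 0.288 (0.232 to 0.355).

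Other genes moved in the same state. Its own 14 markers summed to 3951 CPM in PBS and 1742 CPM in 6C5, and of these markers 10 had a lower level in 6C5 and 4 a higher one. F13a1 was at 1227 and 290 CPM and Gas6 at 521 and 134 CPM, whereas Vsig4 was at 3.51 and 14.8 CPM and Cd209f at 18.6 and 29.5 CPM, and Timd4 had 8 UMIs in PBS and 0 in 6C5. The 11 general macrophage markers summed to 25329 and 30687 CPM, the Arg1-high markers to 285 and 2462 CPM, the lipid-type markers to 4622 and 6396 CPM and the monocyte markers to 189 and 316 CPM. The median cell of the state had 0.856% (PBS) and 0.429% (6C5) mitochondrial UMIs, and the estimated share of free RNA was 2.72% and 3.02%. The part of these in the lower scavenger genes was not tested.

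Counted per cell, Lyve1 was found in fewer of the resident-like cells of 6C5. Before thinning, 88 of 233 resident-like cells of PBS had a Lyve1 UMI and 4 of 100 in 6C5. The 24 PBS cells with the most Lyve1 held 75.9% of its UMIs, and 1 cell held 62. This share was 70.4% for Fcna and 61.8% for Cd163, whereas it was 30.6% for Mrc1, 30.9% for Cbr2 and 31.6% for Selenop. Median levels over single resident-like cells were 1163 CPM in PBS and 414 CPM in 6C5 for Mrc1, 1417 and 192 CPM for Cbr2, and 1672 and 645 CPM for Selenop. For these 3 genes, then, the typical cell was lower. Folr2 was at 558 and 387 CPM in the median cell, and Fcrls at 123 and 210 CPM.

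Cells were then thinned to 1000 UMIs each, which left out 8 PBS and 2 6C5 resident-like cells, to compare shares of cells at equal depth. Lyve1 was found in 16.4% (11.9 to 21.9) of 225 PBS cells and in 0 of 98 6C5 cells, which at 1000 UMIs per cell allows a share of up to 3.06%. At full depth the shares were 37.8% and 4.00%, so that limit holds for the thinned depth only. The thinned share in natural killer cells was 0 in both libraries, which allows up to 1.17% in PBS and 1.23% in 6C5 at that depth. Unthinned, 4 of 257 PBS natural killer cells (1.56%) and 0 of 247 from 6C5 had a Lyve1 UMI, at median depths of 4457 and 5265 UMIs. Cbr2 was found in 66.2% and 26.5% of resident-like cells (unthinned 91.0% and 71.0%), beside 4.30% and 0.410% of natural killer cells. Mrc1 was found in 67.6% and 39.8% (unthinned 96.1% and 90.0%), beside 2.34% and 0.410%. Selenop was found in 80.0% and 39.8% (unthinned 97.9% and 96.0%), beside 11.7% and 5.74%. Fcrls was found in 18.7% (13.8 to 24.4) and 30.6% (21.7 to 40.7), intervals that overlap, and in 0 and 0.410% of natural killer cells; unthinned it was in 65.7% and 73.0%. Fcna and Cd163 were in 16.0% and 4.89% of thinned PBS cells and in none of the 98 from 6C5, and unthinned in 51.5% and 33.5% of PBS and 19.0% and 10.0% of 6C5 cells.

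A resident-like cell of PBS held a UMI of 3.60 of the 10 genes on average at this depth, and a cell of 6C5 1.86. At least 3 of the genes were found in 76.0% (69.9 to 81.4) of PBS cells and 25.5% (17.2 to 35.3) of 6C5 cells, and none in 2.67% and 13.3%. Cycling macrophages, in contrast, held 1.5 in PBS and 1.61 in 6C5, and lipid-type macrophages 1.44 and 1.27. Natural killer cells held 0.195 and 0.0697.

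**Figure D3:**
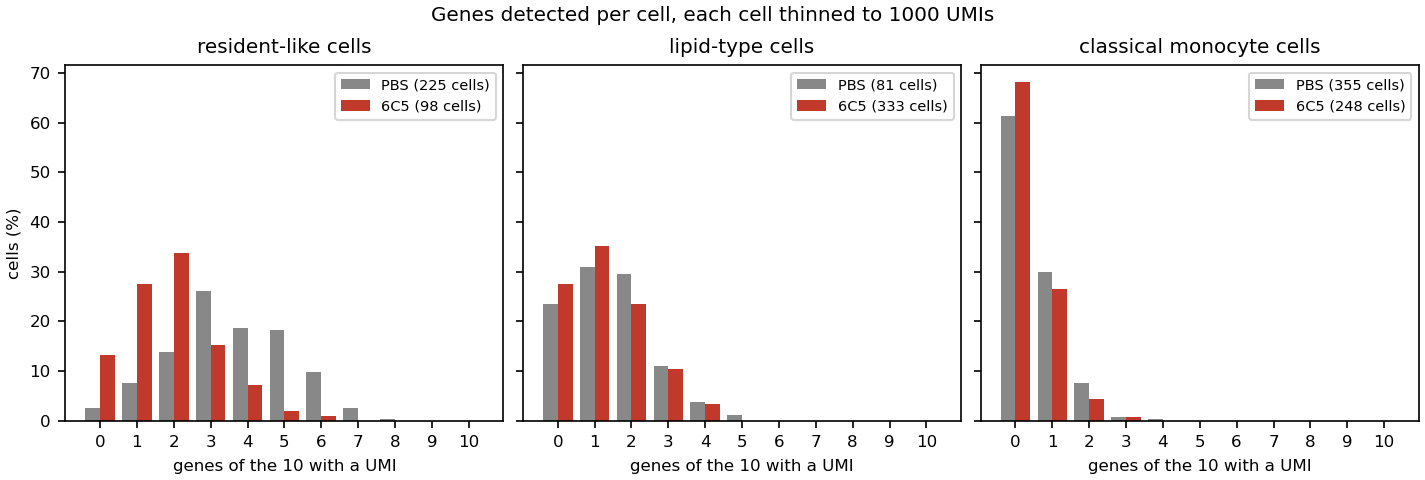
Share of cells (percent, vertical axis) by the number of the 10 genes with a UMI (horizontal axis) after each cell was thinned to 1000 UMIs, in resident-like, lipid-type and classical monocyte cells of each library. In resident-like cells the PBS distribution lies further right (mean 3.60 of 10 genes in 225 cells) than that of 6C5 (mean 1.86 in 98 cells).

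The genes were not found in the same resident-like cells of PBS to the same extent. Fcna was detected in 80.7% of the 88 cells with a Lyve1 UMI and in 33.8% of the others. Fcrls was detected in 62.5% and 67.6%, and Cd163 in 37.5% and 31.0%. Folr2 was detected in 95.5% and 80.7%, and Igf1 in 92.0% and 70.3%. Cells with Lyve1 were deeper, with a median of 18871 UMIs beside 15524, and the part of depth in these shares was not tested.

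State by state the genes parted into those that were lower in several states and higher in none and those that were higher in some. Over the 7 states with at least 30 cells in each library, the resident-like state included, Mrc1 was lower in all 7, Cbr2 and Fcna in 5, Lyve1, Cd163 and Selenop in 4, and none of these was higher in any. Folr2 and Igf1 were each higher in 4 of the 7 states and lower in 2. Fcrls was higher in 2 and lower in 1, and Npl higher in 1 and lower in 3. These counts per gene apply no minimum of UMIs, and some calls rest on few. Lyve1 in lipid-type cells had 4 UMIs in PBS and 1 in 6C5, and Fcna in Cxcl9 interferon-type cells 5 and 17. In Cxcl9 interferon-type cells Lyve1 (0 and 1 UMIs) and Cd163 (0 and 2) allowed no call either way. The shares over all genes cover genes with at least 30 UMIs in a state. Each count by state below is thus given for the members that reach this minimum, with the count over all 10 after it. In lipid-type cells 6 of 9 such members were lower and 2 higher, where 12.3% of all genes were lower and 9.07% higher (over all 10 members, 7 and 2). In cycling cells all 10 reached the minimum, and 5 were lower and 4 higher, beside 16.5% and 9.33%. In classical monocytes 4 of 6 were lower and 0 higher, beside 16.1% and 9.16% (6 and 0 over all 10). Lyve1, with 12 and 0 UMIs there, and Npl, with 17 and 1, make up that gap. In Arg1-high cells 2 of 6 were lower and 2 higher, beside 15.8% and 9.78% (4 and 2 over all 10, where Fcna and Cd163 each had 3 UMIs in PBS and 1 in 6C5). In Cxcl9 interferon-type cells 1 of 6 was lower and 2 higher, beside 9.54% and 7.43% (2 and 2 over all 10). In the joined nonclassical and classical monocytes 2 of 3 were lower and 0 higher, beside 7.89% and 6.26% (4 and 0 over all 10). Members below the minimum could be called only on few UMIs, and the members that reach it are not the whole set.

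The Negr1-type state, with 4 cells in 6C5, was not compared and held 580 Folr2 UMIs in PBS and 0 in 6C5. Of the 7 states compared, Folr2 was higher in 6C5 in the 4 macrophage states other than the resident-like state. In Cxcl9 interferon-type cells, named for the chemokine genes Cxcl9 and Cxcl10, it went from 13 UMIs and 32.4 CPM in PBS to 1423 UMIs and 233 CPM in 6C5, with a ratio of 7.19 (4.19 to 13.5). It went from 170 to 445 CPM in lipid-type cells, with a ratio of 2.63 (2.28 to 3.04), and from 48.5 to 117 CPM in Arg1-high cells, with a ratio of 2.42 (1.75 to 3.44). In cycling cells it went from 195 to 317 CPM, with a ratio of 1.62 (1.45 to 1.82). In the joined nonclassical and classical monocytes its 12 UMIs all came from PBS, and the interval of its ratio reached up to 0.642.

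Igf1 followed the states in the same way as Folr2. It went from 75 to 177 CPM in cycling cells (ratio 2.36, 2.01 to 2.77), from 93.7 to 189 CPM in lipid-type cells (2.01, 1.66 to 2.47), and from 22.5 to 56.7 CPM in Cxcl9 interferon-type cells (2.53, 1.32 to 5.57). In Arg1-high cells it went from 5 UMIs and 6.21 CPM to 127 UMIs and 24.2 CPM (3.90, 1.63 to 12.2). The Cxcl9 interferon-type state had 32 cells in PBS and the Arg1-high state 76, with 9 and 5 Igf1 UMIs. The intervals rest on UMI counts and do not cover how few cells were sampled. Fcrls was higher in cycling cells, from 103 to 348 CPM (ratio 3.39, 3.0 to 3.84), and lower in classical monocytes, from 23.4 to 14.7 CPM (0.627, 0.412 to 0.936). In the other states outside resident-like cells its interval spanned 1.

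Mrc1 was lower in each of the 7 states. Its ratio was 0.780 (0.710 to 0.855) in cycling cells, 0.477 (0.437 to 0.521) in lipid-type cells, 0.301 (0.25 to 0.365) in Cxcl9 interferon-type cells and 0.384 (0.327 to 0.453) in Arg1-high cells. In classical monocytes it went from 293 to 152 CPM, with a ratio of 0.518 (0.458 to 0.583). Cbr2 was level in cycling cells, at 399 CPM in PBS and 437 CPM in 6C5 (ratio 1.09, 0.997 to 1.2), and lower in lipid-type cells, at 399 and 272 CPM (0.680, 0.613 to 0.757). Npl was higher in cycling cells, at 66.1 and 98.9 CPM (1.5, 1.22 to 1.83), and lower in lipid-type cells, at 31.0 and 8.69 CPM (0.281, 0.176 to 0.448). Selenop differed little in Cxcl9 interferon-type cells, at 679 and 622 CPM, with an interval that spans 1 (0.917, 0.810 to 1.04). Lyve1 in cycling cells went from 185 UMIs to 2, with a ratio of 0.0493 (0.00592 to 0.181), and Fcna there from 180 to 13 UMIs (0.329, 0.172 to 0.577).

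**Figure D4:**
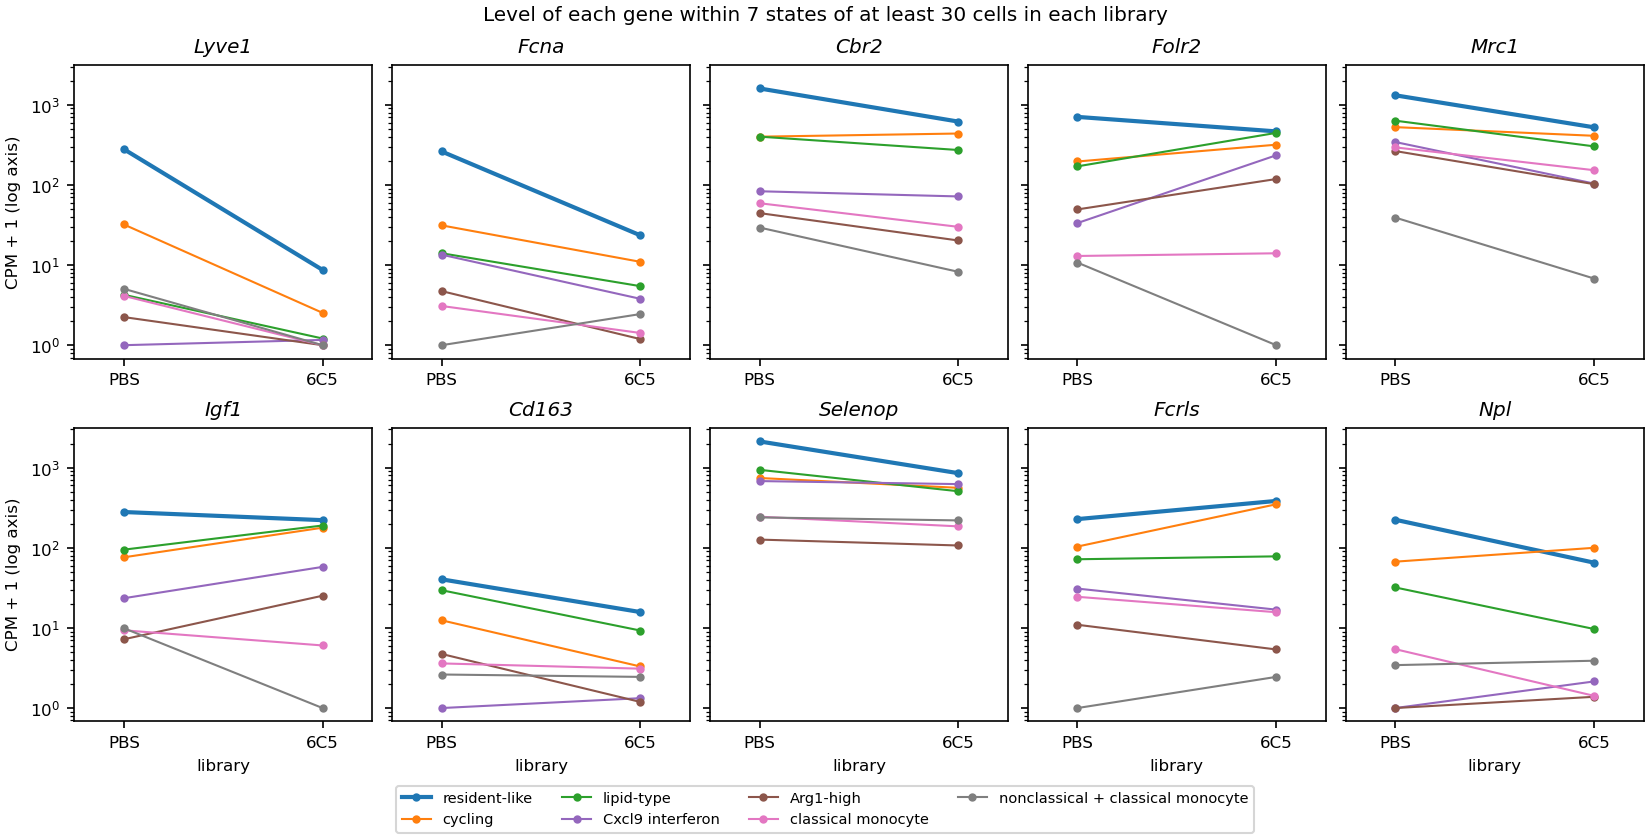
Level of each gene (panels) in the 7 states with at least 30 cells in each library, as CPM plus 1 on a log axis. In each panel PBS stands on the left and 6C5 on the right. Colours mark the states, a line joins the values of a state, and no intervals are drawn. Mrc1 is lower in 6C5 in all 7 states, while Folr2 and Igf1 are lower in resident-like cells and higher in cycling, lipid-type, Cxcl9 interferon-type and Arg1-high cells.

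The class values combine the levels within states with the share of UMIs that each state held. These parts were set side by side over the same 7 states. The Negr1-type state, with 563 cells in PBS and 4 in 6C5, is left out. The makeup part thus does not hold the change in its share. The observed values here also differ from those of the class. They are -5.47 beside -4.94 for Lyve1 and -0.03 beside 0.35 for Folr2. Makeup here means shares of UMIs, so it joins the number of cells of a state with their depth. With the 6C5 levels and the makeup of PBS, Lyve1 was at -4.53 on the log2 scale. With the PBS levels and the makeup of 6C5 it was at -1.67, beside an observed -5.47. For Fcna the values were -2.85 and -1.35, beside -3.85. Mrc1 and Selenop likewise had the lower value from levels (-0.93 and -0.85) than from makeup (-0.44 and -0.47). For Npl the makeup gave the lower value (-1.48, beside -0.63 from levels), and for Cbr2 it was -1.06 beside -0.78. For Fcrls the parts had opposite signs, 1.13 from levels and -0.94 from makeup, beside an observed -0.45. Folr2 and Igf1 were near or above 0 from levels (0.08 and 0.36) and negative from makeup (-1.03 and -0.89), beside observed values of -0.03 and -0.16. The values from levels and from makeup do not add up to the observed one, and no test was made of them.

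**Figure D5:**
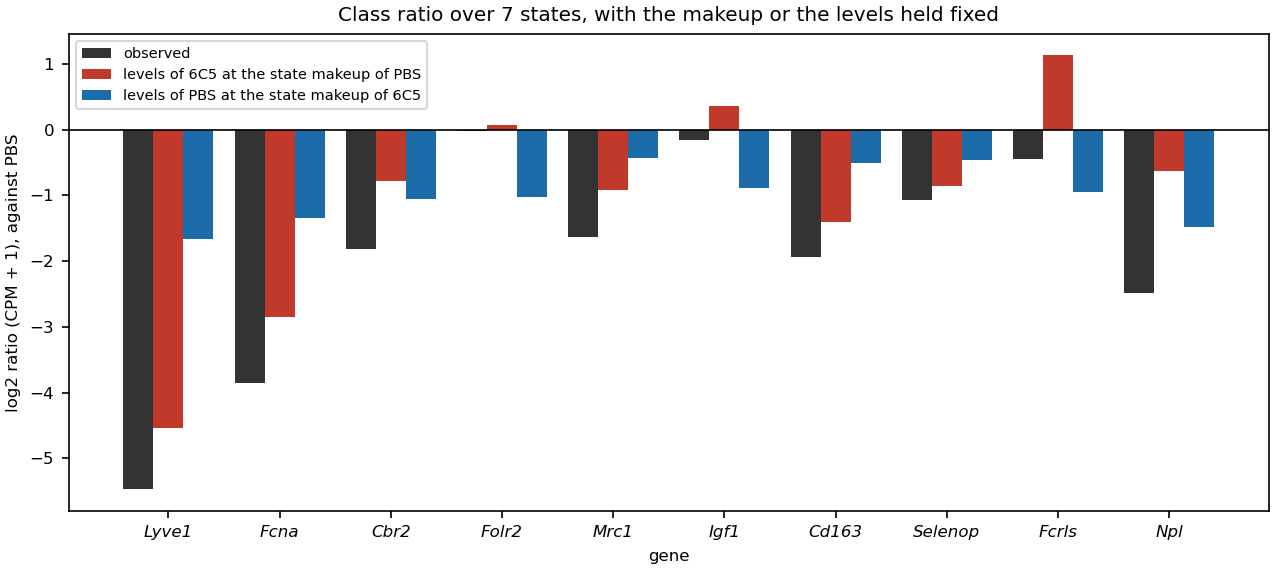
Log2 ratio, 6C5 over PBS, of each gene over 7 states: as observed, with 6C5 levels at the PBS makeup, and with PBS levels at the 6C5 makeup. Makeup means the share of UMIs of each state, and the Negr1-type state is left out. Lyve1 and Fcna lie lower from levels (-4.53 and -2.85) than from makeup (-1.67 and -1.35), and Fcrls has opposite signs (1.13 and -0.94).

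Free RNA, the summed barcodes with 10 to 100 UMIs, needs no cell naming. There too the scavenger genes were lower in 6C5: 7 of 10 were at least 2-fold lower, where 2.91% of 8774 genes with at least 30 UMIs were, and 4 of the 7 scavenger genes that reach that minimum. By the interval 8 of 10 were lower and 2 (Igf1 and Fcrls) spanned 1, where 10.7% of all genes were lower. The median log2 ratio of the 10 was -2.19, beside 0.02 over all genes. In such sums fewer cells of a type and less RNA in each cell cannot be told apart. The 11 macrophage markers also stood lower in the free RNA of 6C5, at 6205 CPM beside 10741 CPM in PBS, and melanoma markers higher, at 2823 beside 1616 CPM, and their part was not tested.

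Lyve1 held 29 of 508037 free-RNA UMIs in PBS (57.1 CPM). It held 0 of the 2799082 of 6C5, and the interval of its ratio reached up to 0.0246. Fcna held 18 and 3 UMIs, 35.4 and 1.07 CPM, with a ratio of 0.0303 (0.00571 to 0.104). Both genes were thus at or near 0 in the free RNA of the 6C5 library, which held more free-RNA UMIs. Cbr2 went from 329 to 54.3 CPM (ratio 0.165, 0.132 to 0.207), Mrc1 from 315 to 90.0 CPM (0.286, 0.234 to 0.351) and Selenop from 760 to 254 CPM (0.335, 0.295 to 0.380). Npl went from 59.1 to 6.07 CPM (0.103, 0.0532 to 0.193) and Cd163 from 8 to 4 UMIs (0.0908, 0.0200 to 0.339). Folr2, which was higher in the class, was lower in free RNA, at 154 and 84.7 CPM (0.551, 0.425 to 0.722). Igf1 (61.0 and 43.2 CPM) and Fcrls (31.5 and 22.2 CPM) spanned 1.

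Summed over every barcode of a library, all 10 genes were lower in 6C5, where 33.7% of 16496 genes were lower, and 7 were at least 2-fold lower, where 1.64% were. Lyve1 went from 2850 UMIs and 36.1 CPM to 34 UMIs and 0.396 CPM, and Fcna from 34.8 to 1.75 CPM. Folr2 was at 114 and 95 CPM, Igf1 at 57.8 and 38.0 CPM and Fcrls at 42.6 and 28.8 CPM, the mildest of the 10.

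Lyve1 was also counted in barcodes that took no name in the class. A cluster with macrophage markers but a median of 654 UMIs in PBS (527 barcodes) and 1725 in 6C5 (99 barcodes) was led by Ccl8, Folr2, Cbr2 and Lyve1. It held 110 Lyve1 UMIs (193 CPM) in PBS. There were none in 6C5, and the interval of the Lyve1 ratio reached up to 0.0407. Here 7 of the 10 genes were at least 2-fold lower in 6C5, where 7.97% of 4088 genes with at least 30 UMIs were. Of those 7, 6 were among the 9 with at least 30 UMIs. Folr2 was at 490 and 466 CPM and Fcrls at 109 and 134 CPM in these barcodes, with intervals that span 1. Subclusters with markers of another lineage (66 PBS and 98 6C5 cells) held 268 Lyve1 UMIs in PBS and 3 in 6C5. The smaller of them, with 30 PBS and 15 6C5 cells, was led by Retnla, Gimap4, Cd3e and Lyve1, so that macrophage and T-cell genes stood together in it.

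Other genes of resident macrophages were lower in part. Of 26 such genes, 24 had at least 30 UMIs in the class: 17 were lower, 5 higher and 2 spanned 1, where 58.4% of all genes in the class were lower and 15.4% higher, so that these counts lie near the background. At least 2-fold lower were 8, where 7.55% of all genes were, and the median log2 ratio was -0.67, beside -0.30 over all genes. Of the 26, 13 are also markers by which the resident-like state was named. Furthest from 0 in log2 ratio, with 1 CPM added, were Hpgd, which degrades prostaglandins (27.2 to 3.4 CPM), Gas6, the AXL ligand (117 to 22.9 CPM), the complement component C4b (44.3 to 9.65 CPM) and the lectin Clec10a (112 to 34.4 CPM). Without the added CPM, Slc40a1 (5.89 to 1.72 CPM) and Cd5l, which was higher (2.44 to 9.20 CPM), lie further from a ratio of 1 than Clec10a. Both fall outside the naming rule and were named after their values had been seen. In resident-like cells alone Gas6 went from 521 to 134 CPM and Clec10a from 204 to 44.9 CPM.

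The other lists connected to these genes were split. Of 16 scavenger and endocytic receptors measured of 19 in the table, 8 were lower and 7 higher in the class (median -0.13), where 58.4% of all genes were lower and 15.4% higher (median -0.30). The class A receptor Msr1 (107 to 239 CPM) and the lipid receptor Cd36 (98.7 to 282 CPM) were higher, whereas the lipoprotein receptor Scarb1 (55.0 to 21.8 CPM) and the lectin Cd209a (13.2 to 4.85 CPM) were lower, so that scavenger receptors did not move as 1 group. Of 5 genes of the Igf axis measured of 9, Igfbp4, an Igf-binding protein, was lower (150 to 24.5 CPM), and Igf2r (11.1 to 37.6 CPM) and the adaptor Irs2 (28.8 to 36.1 CPM) were higher, while Igf1r, the receptor of Igf1, was at 10.9 and 11.1 CPM. Of 3 genes of the lectin pathway of complement measured of 8, in which Fcna acts, C4b was lower, C3 higher (39.8 to 93.4 CPM) and C2 spanned 1 (1.74 and 1.68 CPM). Of 11 genes of folate, selenium and sialic acid handling measured of 12, 8 were lower and 2 higher (median -0.64), near the same 58.4% and 15.4% of all genes. Among them were the selenoprotein Gpx3 (30.3 to 5.26 CPM), the folate transporters Slc46a1 (8.41 to 2.81 CPM) and Slc19a1 (5.50 to 1.99 CPM), and the sialic acid phosphatase Nanp (5.16 to 2.08 CPM).

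Across the 15 pairs of state and library with at least 30 cells, the pattern of the 10 genes was most like that of Ap2s1 (Pearson r 0.97), Ap2m1 (0.97), Gas6 (0.97), Clta (0.97), 0610012G03Rik (0.96), Rragc (0.96), Nme4 (0.96), Dera (0.96), Snx2 (0.95) and Zdhhc14 (0.95). Ap2s1, Ap2m1 and Clta encode parts of the clathrin coat and its adaptor. The single gene most like each was Kank2 for Lyve1 (0.91), Sh3gl1 for Fcna (0.96), Gas6 for Cbr2 (0.98), Dhrs3 for Folr2 (0.97), Dab2 for Mrc1 (0.97), Tpcn2 for Igf1 (0.96), Ufl1 for Cd163 (0.95), Ctso for Selenop (0.96), Ptpra for Fcrls (0.96) and Sptssa for Npl (0.96). Among the 10 genes, Folr2 and Igf1 were most alike (0.95) and Lyve1 and Folr2 least (0.44). The 15 points share 2 libraries and their depth, so these values only describe likeness in this set.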

How the data were processed

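The deposited matrices hold unfiltered UMI counts per gene and barcode. Per the file headers, Cell Ranger 7.1.0 made them; version 2.1.1 and mm10 stand in the submitters' processing notes. Libraries were made with a Chromium v3 kit after digestion with collagenase IV and DNase I, per the labels' protocols. The sources used here do not give whether intronic reads were counted. No columns of other samples were present. The 10 genes and the gene lists were chosen with earlier results of these data known.

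Kept were barcodes with at least 500 UMIs and 300 genes whose mitochondrial share was at most 10% (13992 PBS, 13541 6C5). The automatic threshold of Scrublet (scanpy 1.11.5) marked 0 barcodes in either library and so had not worked. Instead, 0.8% per 1000 barcodes were removed by highest score (1566 and 1467). Both libraries were clustered together on 2000 variable genes without the 10 genes, with 15 neighbours in 30 principal components and leidenalg 0.10.2 at resolution 1. A cluster took a name from at least 3 fixed markers among its 200 leading genes. Set after the data had been seen were these rules. Clusters correlating at 0.98 or more with free RNA (6635 and 6263 barcodes), clusters with a median UMI count under 1/3 of the myeloid median, and subclusters with over 0.5 of another lineage's markers were left out. Names are rebuilt, as no annotation by the authors was used. Named immune cells numbered 4153 and 4637, with medians of 9497 and 7154 UMIs.

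UMIs were summed per population and library. Levels have exact Poisson, ratios exact conditional binomial and shares exact Clopper-Pearson 95% intervals (scipy 1.17.1); a ratio of shares has a log-scale interval. Log2 ratios add 1 CPM, and the background is every gene with at least 30 UMIs. A share of cells at 0 has a bound from 3 counts. Where a gene had 0 UMIs in 1 library, the upper end of the exact interval of its ratio is given. The intervals were run on simulated Poisson counts, which hold no spread between cells or libraries and so cannot test whether the intervals cover it. Named were all 10 genes, up to 4 genes of each list with the largest absolute log2 ratio, the 10 genes most like the mean of the 10 among those with at least 200 UMIs, the gene most like each, and state markers. Retnla, Gimap4, Slc40a1 and Cd5l were named after their values had been seen. TMM factors came from edgeR 4.0.16 (R 4.3.3). Filters, clustering, scaling and thinning were varied. The motif cores were chosen by hand, and the promoter windows were taken from RefSeq. Positions come from GENCODE M21.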

Additional observations from a re-analysis of the deposited data

Results flagged for a closer look

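Some genes moved in opposite directions in different states, each on 1 library per group. None of these differences was tested. The log2 ratio of Folr2 was 2.81 in Cxcl9 interferon-type cells and -0.60 in resident-like cells, a difference of 3.41. That of Igf1 was 1.81 in Arg1-high cells and -0.34 in resident-like cells, a difference of 2.14. The PBS side of the 2 positive values rests on 13 Folr2 UMIs in 32 cells and 5 Igf1 UMIs in 76 cells. The resident-like value of Igf1 turned to 0.23 with Leiden resolution 2. Fcrls was at 1.75 in cycling cells and -0.64 in classical monocytes, a difference of 2.39. Npl was at 0.57 in cycling cells and -1.78 in resident-like cells, a difference of 2.35. In each case the counting intervals of the pair lay on opposite sides of a ratio of 1. The cycling state also had B-cell and Negr1-type markers among its leading genes, and their part in its values was not tested.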

How the results depend on the processing

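The median log2 ratio of the 10 genes in the class (-1.47) was below 0 under all 17 alternatives. It was -1.23 with Leiden resolution 2, -0.995 with 1000 variable genes, -1.42 with each library clustered on its own, -1.53 with mixed subclusters counted, -1.15 with TMM factors and -1.59 with cells thinned to 1000 UMIs. At least 2-fold lower were 5 to 7 genes under 16 alternatives. The ratio of the resident-like shares (0.411) was below 1 under 11 alternatives but moved widely: it was 0.132 with at most 5% mitochondrial UMIs, 0.171 with Leiden resolution 0.5, 0.0976 with Leiden resolution 2, 0.102 with the 10 genes among the clustering genes and 0.209 with low-UMI clusters counted. It has no value with 1000 variable genes or a free-RNA bound of 0.95, which left no resident-like state. The free-RNA median (-2.19) was -1.87 in barcodes with 10 to 50 UMIs and -1.85 over all barcodes. Of 310 values of single genes, 13 had another sign than reported. In the class Igf1 (-0.04 as reported) was above 0 under 5 of 17 alternatives and Fcrls (-0.09) under 4 of 17, both with reported intervals that span 1. The other 4 changes were in genes whose interval excluded 1: Folr2 in the class was at -0.18 with the free-RNA bound of 0.95, which left 54 and 68 cells; in resident-like cells Igf1 was at 0.23 and Cd163 at 0.40 with Leiden resolution 2 (205 and 15 cells), and Cd163 at 0.062 with the 10 genes among the clustering genes (220 and 23 cells). Fcrls in resident-like cells was above 0 under all 14 alternatives (0.19 to 1.40). Counting mixed subclusters and leaving out shared barcodes were chosen after seeing the data. The cause of these shifts was not tested. No paired analysis was possible because each group had 1 library, and for the same reason no replicate could be left out. Low counts limit Cd163, and Lyve1 in 6C5.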

Other observations

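Selenop was also counted in tumour cells that came through the sort. Melanoma-like cells (181 in PBS and 409 in 6C5) had 933 CPM of it in PBS and 274 CPM in 6C5, a ratio of 0.293 (0.282 to 0.305), and held 13.4% and 22.8% of its UMIs in kept barcodes. Folr2 and Igf1 in these cells were at 6 and 2 UMIs in PBS and 80 and 40 in 6C5, out of 6030812 and 18329519 UMIs.

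Outside macrophages, conventional dendritic cells of the cDC2 type had more Folr2 and Igf1 in 6C5, at 7.45 and 16.7 CPM and at 2.48 and 14.3 CPM, and less Mrc1, at 135 and 77.7 CPM. The Folr2 UMIs lay in 16 of 313 PBS cells (5.11%) and 7 of 163 6C5 cells (4.29%), so few cells carried the higher level and the share of cells with a UMI was not higher. Igf1 was found in 8 cells of each library. In cDC1 cells Cbr2 was at 31.7 and 4.28 CPM and Selenop at 116 and 38.1 CPM.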
